A study of Homo sapiens with 24 samples.

Results

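The mRNAs described here are those of the 2 ferritin chains (FTL and FTH1), the transferrin receptor (TFRC), the divalent metal transporter (SLC11A2) and the 2 iron regulatory proteins (ACO1 and IREB2). They were taken by symbol through their Ensembl identifiers, which gave 6 of the 57992 gene rows of the count table. All 6 mRNAs had enough reads to be among the 14360 genes tested, with 3689 (SLC11A2) to 17633 (IREB2) counts over all libraries.

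Cells adjust iron uptake and storage largely after transcription. When iron is scarce, the iron regulatory proteins bind a short hairpin, the iron-responsive element. In the 5' UTR of the ferritin mRNAs this blocks translation, and in the 3' UTR of the transferrin receptor mRNA it protects the message from decay. ACO1 is a cytosolic aconitase that becomes iron regulatory protein 1 on losing its iron-sulphur cluster, and IREB2 is iron regulatory protein 2, which is degraded when iron is plentiful.

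The elements are shown because they set the translational targets (ferritin) apart from the stability target (TFRC) by place and copy number. They were found in the GENCODE 29 transcripts on GRCh38 as a C, 5 bases, then CAGTGN, where the 5 bases before and after the 6-base loop pair (G with T allowed). Only the sense strand was searched, and overlapping matches were kept. Capitals mark the bulged C and the loop, and each sequence is written 5' to 3' in the sense of its mRNA:
FTL 5' UTR, chr19:48965335-48965363, plus strand: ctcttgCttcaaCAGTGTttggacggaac
FTH1 5' UTR, chr11:61967574-61967602, minus strand: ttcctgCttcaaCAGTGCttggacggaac
TFRC 3' UTR, chr3:196050979-196051007, minus strand: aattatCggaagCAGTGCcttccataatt
TFRC 3' UTR, chr3:196050575-196050603, minus strand: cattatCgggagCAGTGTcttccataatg
TFRC 3' UTR, chr3:196050510-196050538, minus strand: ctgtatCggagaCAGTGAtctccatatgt
TFRC 3' UTR, chr3:196050463-196050491, minus strand: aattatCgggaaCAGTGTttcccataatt
SLC40A1 5' UTR, chr2:189580661-189580689, minus strand: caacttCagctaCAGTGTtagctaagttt
The ferritin mRNAs carry 1 match each near the start of the message and TFRC carries 4 near one another in its 3' UTR. SLC40A1 encodes ferroportin, the iron exporter, whose mRNA is known to be controlled through a 5' element as ferritin is. No UTR of ACO1, IREB2 or SLC11A2 held these letters. A match was present in 290 of 19659 protein-coding genes (1.48%), counted anywhere in a protein-coding transcript, coding sequence included. The pattern can miss elements: it gave no match in EPAS1 or CDC42BPA, which are treated below as mRNAs with a known element. Numbers of matches are thus not numbers of elements. A match is a description of letters, not a measured site.

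The libraries came from the human embryonic kidney line HEK293T, in versions that stably express TIA1-miniSOG, G3BP2-miniSOG or miniSOG-DDX6; the labels do not say whether a line is 1 clone. MiniSOG is a small protein that makes singlet oxygen in blue light, and RNA bases oxidised near it react with propargylamine, a probe to which biotin is then clicked so that the RNA can be pulled down on streptavidin. TIA1 and G3BP2 are components of stress granules and DDX6 is a helicase of processing bodies. TIA1, G3BP2 and DDX6 cells were treated with 0.5 mM sodium arsenite for 1 h, and DDX6 cells also had no arsenite; in each of these 4 combinations there were labelled captures (probe at 10 mM for 5 min, light for 15 min, streptavidin), no-probe captures (same steps without propargylamine) and inputs (labelled RNA before capture), with 2 replicates each.

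The 24 libraries held 3344960 to 5919467 counts in labelled captures, 1129510 to 3472565 in no-probe captures and 2511043 to 3825961 in inputs. Mitochondrial genes took 1.74% to 8.48% of the counts of labelled captures, 18.8% to 30.2% in no-probe captures and 23.7% to 31.6% in inputs; their part in the results below was not tested. Values are shares of a library, so that scaling matters. With scaling by total counts in place of TMM (trimmed mean of M values), the median of all genes moved up by 0.46 to 0.65 on the log2 scale in the 4 capture-over-input comparisons, and the share of calls that were higher was 83.0% to 92.3% instead of 53.8% to 54.3%. It was 71.0% to 92.3% instead of 52.1% to 52.8% in the comparisons with the no-probe captures. The 5 HEK293 markers (PAX2, VIM, NEFM, NEFL and CDH2) all passed the filter on low counts. Of 8 markers of other cell types, 7 had 0 (HBB) to 21 (HBA1) counts in all libraries together, and COL1A1, a collagen that fibroblasts make, had 1439. CDH2 was higher than input in all 4 labelled captures, NEFM was lower in all 4, PAX2 in 3 and VIM in 2, NEFL was higher in 1, and COL1A1 was lower in G3BP2 (-1.10 ± 0.28, log2) and in DDX6 with arsenite (-0.97 ± 0.30).

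The ferritin mRNAs were depleted from every kind of labelled capture. FTL, the light chain that helps form the mineral core, was 3.74-fold to 5.32-fold lower in labelled captures than in inputs, and FTH1, the heavy chain with the ferroxidase activity, was 2.06-fold to 3.11-fold lower. TFRC, which imports transferrin-bound iron, was 1.84-fold to 2.06-fold higher in the captures of G3BP2 and of DDX6 with and without arsenite. IREB2 was 2.02-fold to 2.15-fold higher in all 4 combinations. As these are bulk libraries, fewer cells with an RNA near the bait and less such RNA per cell cannot be told apart.

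With TIA1, FTL was at 32.5 and 42.7 CPM (TMM-normalised counts scaled to a common library size) in labelled captures, against 157 and 181 CPM in no-probe captures and 149 and 187 CPM in inputs. With G3BP2 it was at 31.2 and 42.5 CPM in labelled captures, against 176 and 152 CPM in no-probe captures and 196 and 194 CPM in inputs. Each labelled capture was far below all other libraries of its combination, and no-probe captures and inputs lay close together. With DDX6 and arsenite, FTL was at 38.9 and 43.9 CPM in labelled captures, against 107 and 211 CPM in no-probe captures and 170.4 and 177 CPM in inputs. With DDX6 and no arsenite it was at 28.0 and 31.9 CPM in labelled captures, against 90.6 and 114 CPM in no-probe captures and 117 and 107 CPM in inputs. In both the labelled captures were again below all other libraries, whereas no-probe captures and inputs overlapped. The no-probe captures of DDX6 with arsenite were the pair that differed most from each other. The log2 difference of labelled capture over input was -2.16 ± 0.22 for TIA1, -2.41 ± 0.22 for G3BP2, -2.07 ± 0.22 for DDX6 with arsenite and -1.90 ± 0.22 for DDX6 without (± SE of the model, n = 2 libraries a group). FTL was lower in each (adjusted p = 1.47e-08, 4.57e-10, 1.93e-08 and 1.0e-07 in that order, quasi-likelihood test of edgeR, Benjamini-Hochberg adjustment over all tested genes). Only 1.27% of the tested genes had a lower value than FTL in TIA1, 3.01% in G3BP2, 4.83% in DDX6 with arsenite and 5.70% in DDX6 without.

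FTH1 was likewise lowest in the labelled captures, by a smaller amount. It ran from 17.3 to 41.8 CPM in the 8 labelled captures, from 75.9 to 133 CPM in the 8 no-probe captures and from 51.5 to 109.7 CPM in the 8 inputs. No labelled capture reached the lowest input or no-probe capture; the lowest value of all, 17.3 CPM, and 33.7 CPM were the 2 labelled captures of G3BP2. FTH1 was lower than input, at -1.34 ± 0.22 in TIA1, -1.64 ± 0.23 in G3BP2, -1.36 ± 0.22 in DDX6 with arsenite and -1.04 ± 0.23 in DDX6 without, on the log2 scale (adjusted p = 1.79e-05, 1.23e-06, 2.2e-05 and 0.000473, edgeR). Reads of FTL per read of FTH1 ran from 0.898 to 1.80 in labelled captures, from 1.15 to 1.90 in no-probe captures and from 1.70 to 2.57 in inputs, and these ranges overlap. Both genes have processed pseudogenes whose reads are hard to assign: 5 of 16 FTL pseudogenes had counts, 1.29% of the gene's and pseudogenes' sum, and 21 of 25 FTH1 pseudogenes had counts, 6.34% of that sum. With the pseudogene counts added, FTL stayed lower at -2.39 to -1.89 and FTH1 at -1.55 to -1.09. Under total counts FTL was at -1.87 to -1.44 and FTH1 at -1.09 to -0.59, still lower in all 4 combinations.

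**Figure D1:**
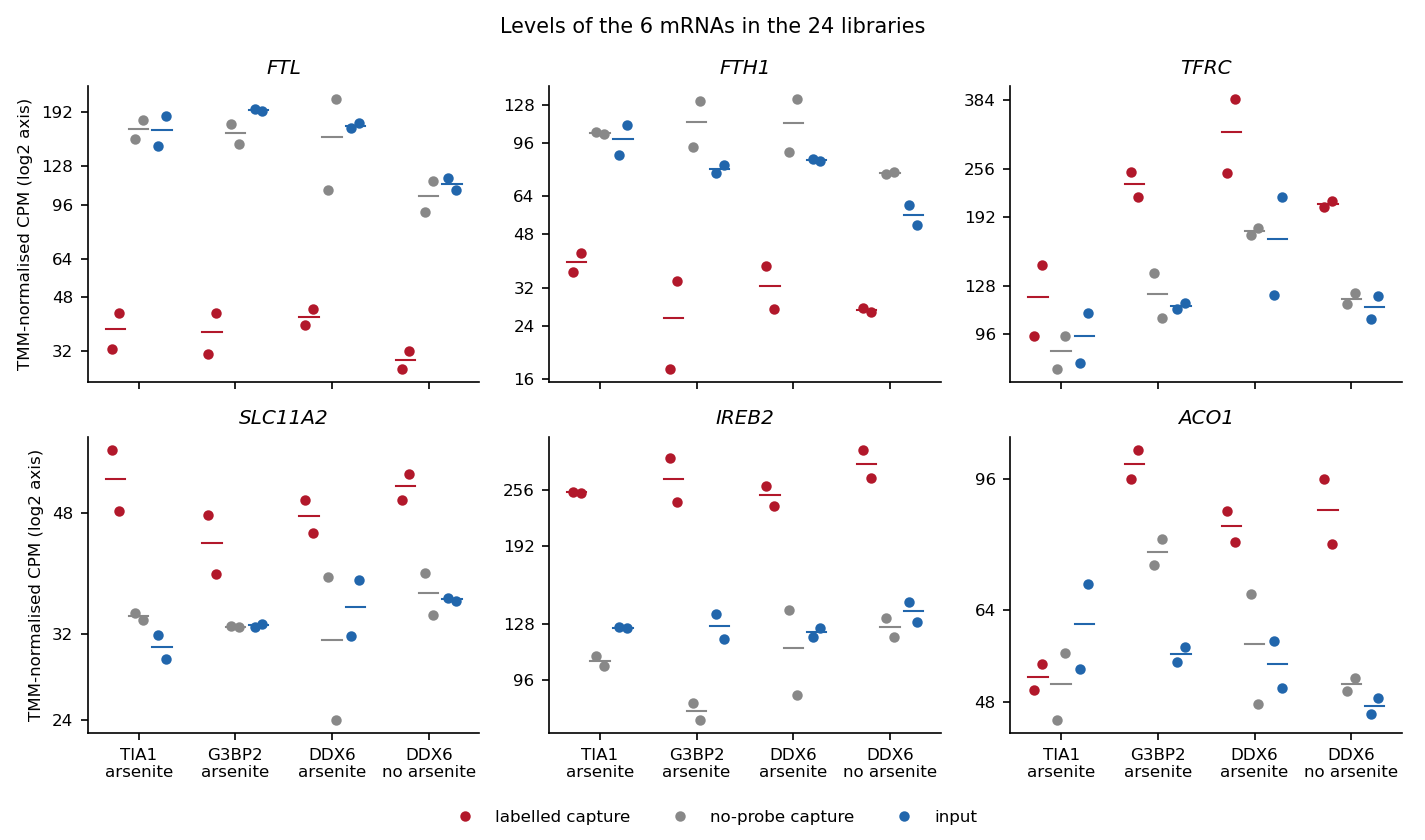
TMM-normalised CPM (log2 axis) of the 6 mRNAs in the 24 libraries, by bait and treatment; each point is 1 library, each short line the mean of 2, with labelled captures in red, no-probe captures in grey and inputs in blue. FTL and FTH1 are lowest in the labelled captures of all 4 combinations, and IREB2 is highest there. TFRC and ACO1 were called higher than input in G3BP2 and both DDX6 combinations but not in TIA1. Their calls in DDX6 with arsenite were lost in a fit of its own libraries, and ACO1 in G3BP2 was not called against no-probe captures.

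TFRC stood apart from ferritin in direction. With G3BP2, TFRC was at 251 and 216 CPM in labelled captures, against 138 and 106 CPM in no-probe captures and 111 and 116 CPM in inputs. With DDX6 and no arsenite it was at 204 and 212 CPM in labelled captures, against 115 and 122 CPM in no-probe captures and 105 and 121 CPM in inputs. In both combinations the labelled captures were above all other libraries. With DDX6 and arsenite TFRC was at 250.1 and 386 CPM in labelled captures, against 173 and 180.1 CPM in no-probe captures and 121 and 216 CPM in inputs. With TIA1 it was at 95.1 and 145 CPM in labelled captures, against 78.2 and 95.2 CPM in no-probe captures and 81.1 and 109 CPM in inputs. With DDX6 and arsenite the labelled captures were above all other libraries, the no-probe captures lay within the range of the inputs, and the replicates of labelled captures and of inputs differed widely. In TIA1 1 labelled capture lay among the inputs and the no-probe captures. Over input, TFRC was higher by 1.04 ± 0.22 in G3BP2, 0.91 ± 0.22 in DDX6 with arsenite and 0.88 ± 0.22 in DDX6 without (log2; adjusted p = 0.000364, 0.0014 and 0.00179, edgeR), and was at 0.34 ± 0.23 in TIA1 (adjusted p = 0.259). The 95% interval in TIA1 ran from -0.16 to 0.84. For DDX6 with arsenite the call ended without the first input replicate (0.57, adjusted p = 0.0825) and in a fit of that combination's libraries alone (0.84, adjusted p = 0.0577). In TIA1, TFRC passed under total counts (1.00) and with no filter on low counts (0.54, adjusted p = 0.0298), and it was at -0.12 once the trend with GC content was taken out.

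The difference between TFRC and FTL can be read within each library as a ratio of reads, which no scaling changes. The ratio does not show which of these mRNAs moved, and TFRC itself was not called in TIA1. There were 2.93 to 8.79 TFRC reads per FTL read in the 8 labelled captures (median 6.54), 0.498 to 1.61 in the no-probe captures (median 0.816) and 0.543 to 1.22 in the inputs (median 0.653). Every labelled capture lay above every input and no-probe capture. Within the labelled captures TIA1 had the lowest ratios, at most 3.397, and DDX6 with arsenite had 6.43 and 8.79.

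**Figure D2:**
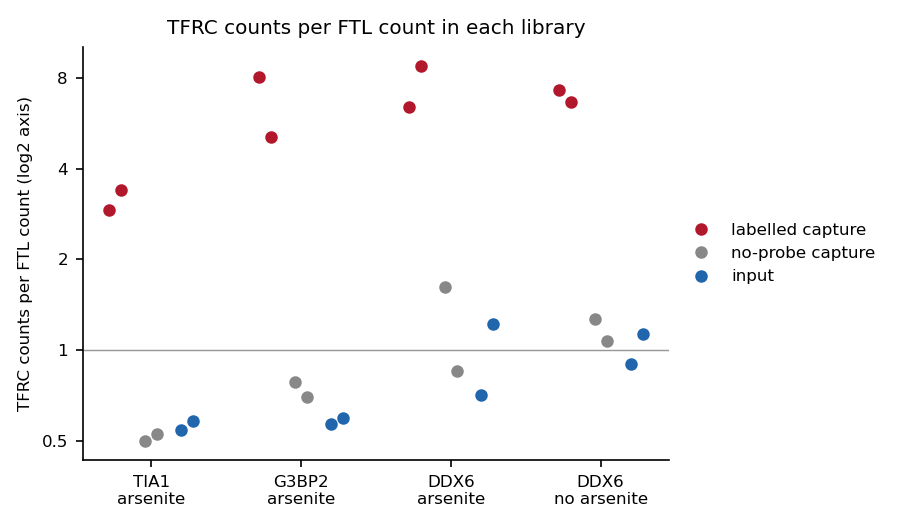
TFRC counts per FTL count (log2 axis) in each of the 24 libraries, by bait and treatment; each point is 1 library, red for labelled captures, grey for no-probe captures and blue for inputs. All 8 labelled captures lie at 2.93 or above, while the other 16 libraries lie at 1.61 or below.

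SLC11A2, which carries iron across the endosomal membrane after uptake through TFRC, was at 39.1 to 59.2 CPM in labelled captures, 24.0 to 39.3 CPM in no-probe captures and 29.4 to 38.4 CPM in inputs. Every labelled capture was above every input, and the ranges of labelled and no-probe captures touched. SLC11A2 was higher than input in TIA1 (0.81 ± 0.19, adjusted p = 0.00146, edgeR) and in DDX6 without arsenite (0.55 ± 0.18, adjusted p = 0.0155), and was at 0.40 ± 0.19 in G3BP2 (adjusted p = 0.0908) and 0.44 ± 0.19 in DDX6 with arsenite (adjusted p = 0.0645). It passed in both of these under total counts (0.93, adjusted p = 0.00139, and 0.98, adjusted p = 0.000831). In G3BP2 it also passed with no filter on low counts (adjusted p = 0.0373) and without the second labelled replicate (adjusted p = 0.0404), and in DDX6 with arsenite without the second input (adjusted p = 0.0489). The call in DDX6 without arsenite was lost with DESeq2 (0.47, adjusted p = 0.0622) and without either input replicate (adjusted p = 0.0676 and 0.0681) or the second labelled replicate (adjusted p = 0.0897). Some transcripts of SLC11A2 are known to carry a 3' element, and the counts per gene do not separate the transcripts.

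IREB2 was higher in all 4 combinations. It was at 236 to 315 CPM in the 8 labelled captures, 78.0 to 137 CPM in the no-probe captures and 119 to 144 CPM in the inputs, with no overlap between labelled captures and the rest. Its log2 enrichment over input was 1.01 ± 0.17 in TIA1, 1.10 ± 0.17 in G3BP2, 1.03 ± 0.17 in DDX6 with arsenite and 1.10 ± 0.17 in DDX6 without (adjusted p = 2.37e-05, 5.63e-06, 2.18e-05 and 6.22e-06, edgeR), and 90.7% to 95.5% of tested genes had lower values. Once the trend with GC content was removed these values were 0.34, 0.76, 0.46 and 0.55 in the same order, all above 0 but smaller and less alike.

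ACO1, whose product shares targets with that of IREB2, differed between baits in its values over input. With TIA1, ACO1 was at 49.9 and 54.1 CPM in labelled captures, against 45.5 and 56.0 CPM in no-probe captures and 53.2 and 69.3 CPM in inputs. With G3BP2 it was at 96.2 and 105 CPM in labelled captures, against 73.5 and 79.7 CPM in no-probe captures and 54.4 and 57.0 CPM in inputs. The TIA1 groups overlapped, whereas in G3BP2 the labelled captures were highest and the no-probe captures stood between them and the inputs. With DDX6 and arsenite it was at 87.04 and 78.9 CPM in labelled captures, against 67.3 and 47.7 CPM in no-probe captures and 58.0 and 50.2 CPM in inputs. With DDX6 and no arsenite it was at 95.9 and 78.5 CPM in labelled captures, against 49.7 and 51.8 CPM in no-probe captures and 46.3 and 48.6 CPM in inputs. In both DDX6 combinations the labelled captures exceeded all others. ACO1 was higher than input in G3BP2 (0.85 ± 0.17), DDX6 with arsenite (0.62 ± 0.17) and DDX6 without (0.88 ± 0.17; adjusted p = 0.000172, 0.00495 and 0.000135, edgeR), and was at -0.23 ± 0.18 in TIA1 (adjusted p = 0.32). The TIA1 value was 0.43 under total counts, and the call in DDX6 with arsenite was lost in a fit of its own libraries (0.55, adjusted p = 0.109).

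Over input, 2 of the 6 mRNAs were higher and 2 lower in TIA1, where 19.4% of all tested genes were higher and 16.4% lower. In G3BP2 3 were higher and 2 lower, against 20.8% and 17.5% of all tested genes. In DDX6 with arsenite 3 were higher and 2 lower, against 20.4% and 17.3%. In DDX6 without arsenite 4 were higher and 2 lower, against 22.9% and 19.6%. Between 35.8% and 42.5% of all genes were called in 1 direction or the other, so a call in itself does not set these mRNAs apart. Their median log2 enrichment was 0.05, 0.63, 0.53 and 0.71 in the same order, and that of all tested genes was 0.02, -0.01, -0.02 and 0.01.

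The comparison with no-probe captures asks which capture needed the probe. Against no-probe captures FTL was lower, at -2.17 ± 0.22 in TIA1, -2.17 ± 0.22 in G3BP2, -1.96 ± 0.22 in DDX6 with arsenite and -1.78 ± 0.22 in DDX6 without, and so was FTH1, at -1.41 ± 0.22, -2.13 ± 0.23, -1.77 ± 0.23 and -1.50 ± 0.23 in the same order. IREB2 was higher by 1.26 ± 0.17, 1.73 ± 0.18, 1.15 ± 0.17 and 1.23 ± 0.17. TFRC was at 0.46 ± 0.23 in TIA1 (adjusted p = 0.102) and was higher by 0.93 ± 0.23, 0.85 ± 0.22 and 0.81 ± 0.22 in the others. ACO1 was at 0.03 ± 0.18 in TIA1 (adjusted p = 0.91) and 0.40 ± 0.17 in G3BP2 (adjusted p = 0.0616) and was higher in DDX6, by 0.54 ± 0.17 with arsenite and 0.78 ± 0.17 without. SLC11A2 was higher in TIA1 (0.66 ± 0.20) and in DDX6 (0.62 ± 0.20 with arsenite and 0.53 ± 0.19 without), and was at 0.41 ± 0.21 in G3BP2 (adjusted p = 0.107).

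Thus 2 mRNAs were higher and 2 lower than in no-probe captures in TIA1 (23.7% and 21.7% of all tested genes), 2 and 2 in G3BP2 (23.7% and 21.7%), 4 and 2 in DDX6 with arsenite (22.5% and 20.2%) and 4 and 2 in DDX6 without (25.1% and 23.1%). The calls for DDX6 with arsenite were the least firm: in a fit of its own libraries TFRC (0.76, adjusted p = 0.0728), ACO1 (0.44, adjusted p = 0.174) and SLC11A2 (0.52, adjusted p = 0.161) all missed the threshold, and each also missed it without 1 of the libraries. In TIA1 the SLC11A2 call ended without the first labelled replicate (0.52, adjusted p = 0.0944), and in DDX6 without arsenite it ended under DESeq2 (0.46, adjusted p = 0.0742) and without the second labelled or second no-probe replicate (adjusted p = 0.0824 and 0.152). FTL, FTH1 and IREB2 kept their calls in every refit of these comparisons that gave a p-value.

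No-probe captures over inputs gave no call for any of the 6 mRNAs with edgeR. Their log2 values lay between -0.63 ± 0.19 (IREB2 in G3BP2, adjusted p = 0.119) and 0.50 ± 0.23 (FTH1 in G3BP2, adjusted p = 0.326). The share of all tested genes called was 0.0139% in TIA1, 0.167% in G3BP2, 0% in DDX6 with arsenite and 0.0139% in DDX6 without. The count of 0 in DDX6 with arsenite was 930 at an unadjusted p under 0.05, and DESeq2 also gave 0.

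**Figure D3:**
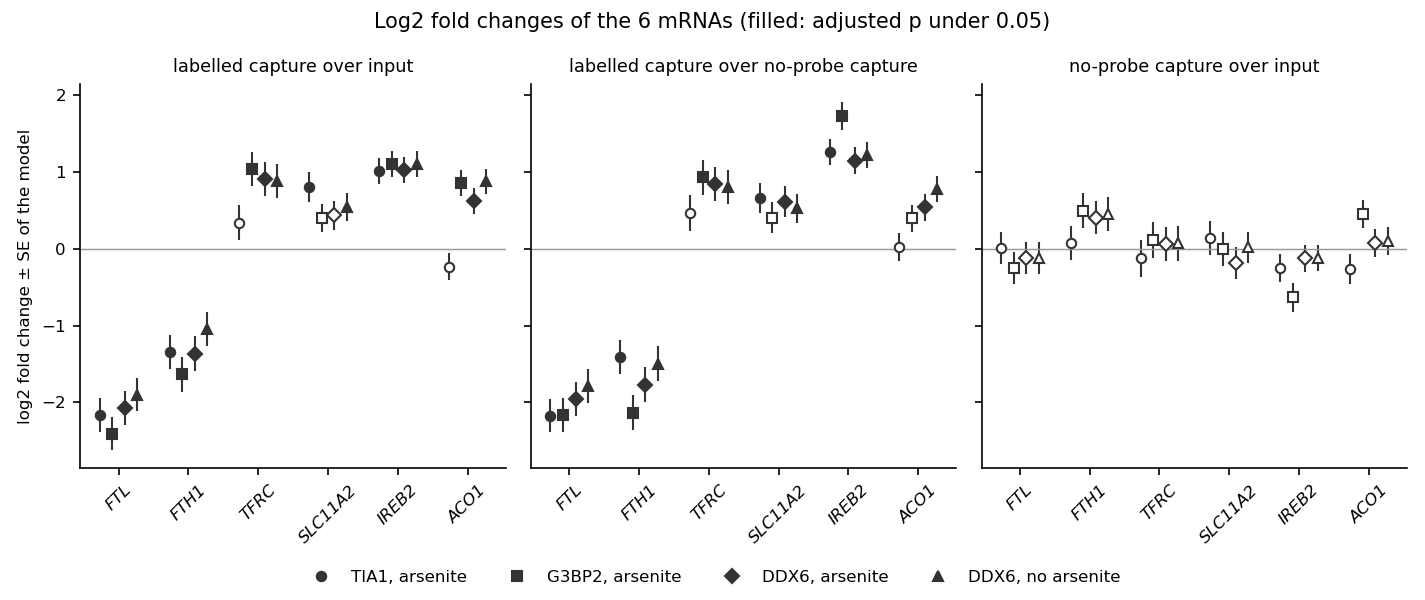
Log2 fold changes with the model's SE for labelled capture over input, labelled capture over no-probe capture, and no-probe capture over input, for the 6 mRNAs; the marker shape gives bait and treatment, and filled markers passed an adjusted p of 0.05. FTL and FTH1 lie below 0 and IREB2 above 0 in both comparisons of labelled captures in all 4 combinations, and all 24 markers of no-probe capture over input are open.

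Differences between baits under arsenite were tested as differences of the enrichments over input. ACO1 was the only one of the 6 mRNAs that passed, lower in TIA1 than in G3BP2, with a difference of -1.09 ± 0.24 (log2; enrichment -0.23 in TIA1 and 0.85 in G3BP2, adjusted p = 0.0108, edgeR), in a comparison where 1.33% of all tested genes were lower. This call was lost under total counts (-0.96, adjusted p = 0.0842) and without the first labelled TIA1 replicate (adjusted p = 0.0627), the second TIA1 input (-0.89, adjusted p = 0.124) or the first G3BP2 input (adjusted p = 0.0697). DDX6 minus TIA1 gave 0.85 ± 0.25 for ACO1 (adjusted p = 0.0565; 0.0493 with DESeq2's size factors and 0.0322 with its Wald test), where 2.35% of all tested genes were called. For TFRC, TIA1 minus G3BP2 was -0.70 ± 0.32 (adjusted p = 0.212), with a 95% interval of -1.39 to -0.01, and DDX6 minus TIA1 was 0.57 ± 0.31 (adjusted p = 0.357). The remaining mRNAs gave differences of -0.37 to 0.41 over the 3 pairs of baits, none past the threshold, and 0.0487% of all genes were called between DDX6 and G3BP2. A bait cannot be told apart from the cell line that carries it, and these comparisons share libraries. Differences between baits over no-probe captures were not tested. Over no-probe captures ACO1 was at 0.03 ± 0.18 in TIA1 and 0.40 ± 0.17 in G3BP2, with no call in either. No-probe captures over inputs put ACO1 at -0.26 ± 0.19 in TIA1 and 0.46 ± 0.19 in G3BP2, also without a call.

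The effect of arsenite could be asked for DDX6 only. The enrichment with arsenite minus that without was -0.32 ± 0.32 (FTH1) to 0.03 ± 0.31 (TFRC) for the 6 mRNAs, and none passed (adjusted p = 1 for each; 0.0209% of all tested genes called, 604 genes at an unadjusted p under 0.05). The 95% intervals ran from -0.83 to 0.49 for FTL and from -0.64 to 0.70 for TFRC, so that changes within these bounds are not excluded. In the inputs, arsenite over no arsenite gave 0.63 ± 0.21 for FTL (adjusted p = 0.126), 0.60 ± 0.22 for FTH1 (adjusted p = 0.182) and 0.58 ± 0.22 for TFRC (adjusted p = 0.197), and none of the 6 mRNAs was called where 1.15% of all tested genes were. For FTL the inputs with arsenite were at 170.4 and 177 CPM and those without at 117 and 107 CPM, with no overlap. Under total counts the differences between these inputs were smaller, at 0.42 for FTL, 0.38 for FTH1 and 0.36 for TFRC (adjusted p = 0.248, 0.423 and 0.429, edgeR). TFRC passed without the first DDX6 input with arsenite (0.96, adjusted p = 0.0203), the replicate in which it was at 121 and not 216 CPM.

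Levels of different genes were compared as CPM per kilobase of the longest annotated transcript. In the inputs the order was FTL (127 to 222 over the 4 group means), FTH1 (45.3 to 80.3), then TFRC (18.6 to 33.0) and IREB2 (19.3 to 21.5), then SLC11A2 (7.05 to 8.26) and ACO1 (6.36 to 8.20). TFRC and IREB2 overlapped between replicates in TIA1 and in DDX6 without arsenite, and SLC11A2 and ACO1 in each combination with arsenite. In the labelled captures FTL was at 34.1 to 47.1, IREB2 at 39.2 to 46.3, TFRC at 23.5 to 62.2 and FTH1 at 20.8 to 31.7, and SLC11A2 and ACO1 remained the lowest, at 9.98 to 12.4 and 6.96 to 13.5. FTL, far ahead in every input, overlapped IREB2 in the labelled captures of TIA1, IREB2 and TFRC in those of G3BP2, and TFRC in those of DDX6 with arsenite. In the labelled captures of DDX6 without arsenite FTL was below both IREB2 and TFRC with no overlap.

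The 6 mRNAs also differ in length, a property the choice of genes did not use. FTL (878 bases, 56.3% GC) and FTH1 (1229 bases, 50.1% GC) are short, with 5.44% and 9.26% of tested genes shorter. TFRC (5111 bases, 41.5% GC), SLC11A2 (4348 bases, 43.0% GC), IREB2 (6354 bases, 38.3% GC) and ACO1 (7466 bases, 45.7% GC) are longer than the median of 3533 bases. Over all tested genes, the shortest 2870 (up to 1954 bases) had a median log2 enrichment of -0.61 to -0.43 and the longest 2866 had 0.12 to 0.35. After the trend with length was removed, FTL was at -1.54, -1.64, -1.55 and -1.29 in TIA1, G3BP2, DDX6 with arsenite and DDX6 without, and FTH1 at -1.08 to -0.61. IREB2 was then at 0.72 to 0.90, TFRC at 0.12 to 0.81, SLC11A2 at 0.22 to 0.65 and ACO1 at -0.55 to 0.66. Removal of the trend with GC content instead left FTL at -2.17 to -1.58 and FTH1 at -1.59 to -0.99. TFRC was then at -0.12, 0.76, 0.48 and 0.45 in the same order of combinations, and SLC11A2 was at 0.45, 0.18, 0.09 and 0.19. ACO1 was at -0.42, 0.74, 0.45 and 0.69. Against no-probe captures the removal left IREB2 at 0.37 to 1.13, TFRC at -0.15 to 0.49, ACO1 at -0.22 to 0.50 and SLC11A2 at 0.06 to 0.19. No p-value was computed for values with a trend removed. Both ferritin mRNAs thus stayed below 0 in all 4 combinations, and the parts of length and of GC content in the differences were not tested.

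**Figure D4:**
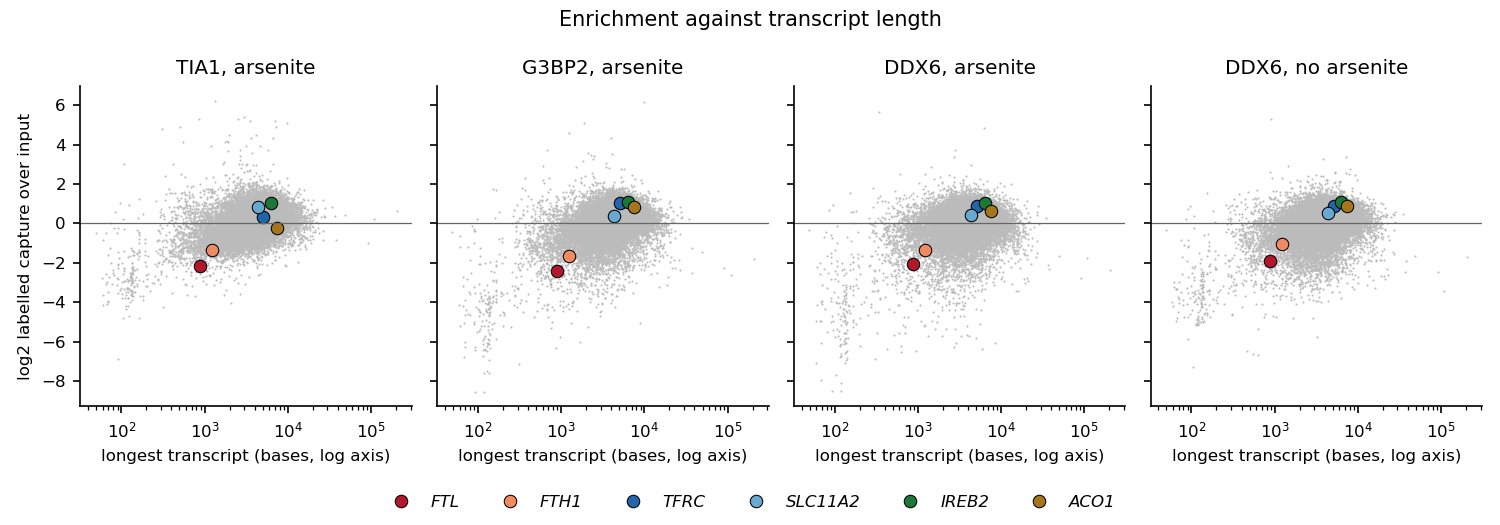
Log2 labelled capture over input against the length of the longest annotated transcript (log axis) for the tested genes (grey) and the 6 mRNAs (coloured), in the 4 combinations of bait and treatment. FTL (878 bases) and FTH1 (1229 bases) sit at the short end at -2.41 to -1.04, and IREB2, at 6354 bases, lies between 1.01 and 1.10 in each panel.

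The protein-coding genes whose levels over the 24 libraries were most like those of FTL, by root mean square difference of centred log2(CPM + 2), were RPS15, a ribosomal protein (0.192), SSR4, a subunit of the translocon-associated complex (0.278), and COX6B1, a subunit of cytochrome c oxidase (0.280), against a median of 1.08 over 12333 candidates. Their enrichments over input were below 0 in all combinations, at -1.95 to -1.64 for RPS15, -2.13 to -1.54 for SSR4 and -2.11 to -1.50 for COX6B1. These genes were picked by likeness over the same libraries, so values of this sign follow from the choice. For FTH1 they were EMD (0.232), HMGA1 (0.244) and RPS28 (0.253), and for TFRC HSD17B12 (0.247), RPL7L1 (0.251) and C8orf33 (0.254), against medians of 0.874 and 0.655. The libraries share baits and captures, and the likeness is a description.

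Of 5 other mRNAs with a known element, 4 were tested; ALAS2, the erythroid enzyme of haem synthesis, had too few counts. In TIA1 2 were higher, in G3BP2 none was called, in DDX6 with arsenite 1 was higher, and in DDX6 without arsenite 2 were higher, with none lower in any. At the shares of all tested genes, 19.4% to 22.9% higher and 16.4% to 19.6% lower, 4 genes would give 0.776 to 0.916 higher and 0.656 to 0.784 lower. SLC40A1, with a 5' element as in ferritin, had 65 and 29 counts in the labelled captures of DDX6 with arsenite, against 19 and 9 in no-probe captures and 2 and 10 in inputs, and 71 and 55 without arsenite, against 10 and 7 in no-probe captures and 8 and 9 in inputs. In raw counts the labelled captures were highest in both, but the counts are few and the libraries differ in size. With arsenite the 29 labelled counts came from a library of 3344960 counts and the 19 no-probe counts from one of 2006220. The order of those libraries reverses once library size is taken into account. SLC40A1 was higher than input by 2.23 ± 0.62 with arsenite (adjusted p = 0.00553, edgeR) and 1.87 ± 0.57 without (adjusted p = 0.00896), was at 0.69 ± 0.57 in TIA1 and 1.37 ± 0.58 in G3BP2 (adjusted p = 0.366 and 0.0622), and against no-probe captures passed only in DDX6 without arsenite (1.39 ± 0.58, adjusted p = 0.0464). The first call was lost without the first input replicate (adjusted p = 0.0928) and the second without the first input replicate or the first labelled one (adjusted p = 0.0796 and 0.0556). CDC14A, a phosphatase with a 3' match, was higher in TIA1 (1.38 ± 0.32) and in DDX6 without arsenite (0.95 ± 0.29), the second of which was lost without the second labelled replicate or either input (adjusted p = 0.0526 to 0.0633). CDC42BPA, a kinase, was higher in TIA1 (0.38 ± 0.15), a call lost with DESeq2 (adjusted p = 0.0682), with its size factors (adjusted p = 0.0802) and without either labelled replicate or the second input (adjusted p = 0.0556 to 0.279). EPAS1, a hypoxia-inducible factor, was at -0.44 to 0.33 with no call.

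Among the 6 genes for the turnover of ferritin and of the iron regulatory proteins, 2 were higher and 1 lower in TIA1, 1 higher and 2 lower in G3BP2, and 3 higher with none lower in DDX6 with and without arsenite. The all-gene shares would give 1.16 to 1.37 higher and 0.98 to 1.2 lower. FBXL5, the iron-sensing subunit of the ligase that degrades IREB2, was higher by 0.56 ± 0.19 in TIA1, 0.76 ± 0.19 in DDX6 with arsenite and 1.25 ± 0.19 in DDX6 without, and was at 0.35 ± 0.18 in G3BP2 (adjusted p = 0.138). Its TIA1 call was lost with DESeq2 (adjusted p = 0.0508) and without the first labelled replicate or either input (adjusted p = 0.0726 to 0.132). NCOA4, the receptor that takes ferritin to autophagosomes, was higher in DDX6, by 0.49 ± 0.15 with arsenite and 0.99 ± 0.15 without, the first of which was lost without the first input (adjusted p = 0.159) or the second labelled replicate (adjusted p = 0.125). CUL1, the cullin scaffold of that ligase, was higher in all 4 combinations (0.53 to 0.95), in TIA1 not without either input (adjusted p = 0.0564 and 0.0582). RBX1, its small RING subunit, was lower in G3BP2 (-1.01 ± 0.20) and in TIA1 (-0.56 ± 0.22), the second at 0.09 under total counts and lost with no filter (adjusted p = 0.498) and without any 1 of the 4 libraries (adjusted p = 0.0722 to 0.389). SKP1 was lower in G3BP2 (-0.61 ± 0.21) but at -0.085 under total counts, and its call was also lost with no filter (adjusted p = 0.182) and without the second labelled replicate or either input (adjusted p = 0.0607 to 0.294). HERC2 was at -0.35 to 0.18 with no call.

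Of 23 genes of iron uptake, chaperoning and export 15 were tested; 3 were higher and 1 lower in TIA1, 1 and 4 in G3BP2, 2 and 5 in DDX6 with arsenite, and 1 and 4 in DDX6 without. The all-gene shares would give 2.91 to 3.44 higher and 2.46 to 2.94 lower. SLC39A14, an importer of iron not bound to transferrin, was higher in all 4 combinations (0.80 to 1.29), and MCOLN1, a lysosomal cation channel that releases iron, was lower in all 4 (-1.09 to -0.78). Under total counts MCOLN1 passed in none (-0.56 to -0.33, adjusted p = 0.11 to 0.402). Its calls were also lost in TIA1 without the first labelled replicate or either input, in DDX6 with arsenite without the second labelled replicate or the first input, and in DDX6 without arsenite without either labelled replicate or the first input (adjusted p = 0.0559 to 0.375). SLC25A37, the mitochondrial iron importer mitoferrin-1, was lower in G3BP2 (-0.79 ± 0.20) and in DDX6 with (-0.82 ± 0.20) and without arsenite (-1.07 ± 0.19), and was at 0.16 ± 0.20 in TIA1. Under total counts it was at -0.26 in G3BP2 and -0.27 in DDX6 with arsenite (adjusted p = 0.34 and 0.333), and the call in DDX6 with arsenite was lost without the second input (adjusted p = 0.0643). FLVCR1, a transporter first described as a haem exporter, was higher in TIA1 (0.60 ± 0.20), a call lost without the second labelled replicate or the second input (adjusted p = 0.0792 and 0.179). SLC48A1, a haem transporter, was lower in DDX6 with arsenite (-1.18 ± 0.42), a call lost under total counts (-0.64, adjusted p = 0.268), in a fit of its own libraries (adjusted p = 0.115), without the second labelled replicate (-0.90, adjusted p = 0.158) and without the first input (-0.31, adjusted p = 0.712). ABCG2, an exporter of haem and other compounds, was at 0.55 to 0.82 with no call.

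Of 11 genes of haem synthesis and breakdown 10 were tested; 2 were higher and 4 lower in TIA1, 2 and 2 in G3BP2, 2 and 1 in DDX6 with arsenite, and 3 and 1 in DDX6 without. The all-gene shares would give 1.94 to 2.29 higher and 1.64 to 1.96 lower. CPOX, coproporphyrinogen oxidase, was higher in all 4 combinations (1.02 to 1.61), as was FECH, ferrochelatase, which inserts the iron (0.75 to 1.21). PPOX, the enzyme between those steps, was lower in all 4 (-1.58 to -0.82). Only the PPOX call in DDX6 without arsenite held throughout. Under total counts the others were at -0.40 to -0.29 (adjusted p = 0.343 to 0.48), and they were lost with no filter (adjusted p = 0.0556 to 0.174). They were also lost in TIA1 without the second labelled replicate or the second input (adjusted p = 0.0507 and 0.13), in G3BP2 without the first labelled replicate or either input (adjusted p = 0.0509 to 0.271), and in DDX6 with arsenite without the second labelled replicate or the first input (adjusted p = 0.177 and 0.488). BLVRA, a biliverdin reductase, was lower in TIA1 (-1.10 ± 0.28; -0.44 under total counts, adjusted p = 0.189) and G3BP2 (-1.14 ± 0.24), and BLVRB, another such reductase, was at -0.67 to -0.15 with no call. ALAS1, the first enzyme outside the erythroid lineage, was higher in DDX6 without arsenite (0.66 ± 0.17) and at -0.11 to -0.04 with no call in the other combinations.

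Of 27 genes of iron-sulphur cluster assembly 25 were tested; 3 were higher and 5 lower in TIA1, 4 and 6 in G3BP2, 6 and 2 in DDX6 with arsenite, and 6 and 3 in DDX6 without. The all-gene shares would give 4.85 to 5.72 higher and 4.1 to 4.9 lower. HSPA9, the mitochondrial chaperone of cluster transfer, was higher in all 4 (0.51 to 1.30), in TIA1 not without the first labelled replicate or either input (adjusted p = 0.0554 to 0.147). NUBPL was higher in G3BP2 and DDX6 (0.59 to 1.12), but in DDX6 without arsenite its call was lost without any 1 of the 4 libraries (adjusted p = 0.0575 to 0.0996), with DESeq2 (adjusted p = 0.093) and with its size factors (adjusted p = 0.0502). ISCA2, a mitochondrial assembly factor, was higher in DDX6 with (1.10 ± 0.27) and without arsenite (0.78 ± 0.26), the second of which was lost with DESeq2 (adjusted p = 0.0588) and without the first labelled replicate (adjusted p = 0.227) or either input (adjusted p = 0.0872 and 0.0544). BOLA3 (-1.74 to -0.75) and NUBP2 (-0.88 to -0.52) were lower in all 4. Under total counts NUBP2 passed in none (-0.22 to -0.026) and BOLA3 in G3BP2 alone (-0.36 to -0.20 in the others). Calls of BOLA3 were also lost in DDX6 with arsenite without either labelled replicate or the second input, and in DDX6 without arsenite without the first labelled replicate or either input (adjusted p = 0.0686 to 0.229). Those of NUBP2 were lost in G3BP2 and in DDX6 without arsenite without the first labelled replicate or either input, and in DDX6 with arsenite without either labelled replicate or the first input (adjusted p = 0.0524 to 0.237). FDXR, ferredoxin reductase, was lower in TIA1 (-1.15 ± 0.33) and G3BP2 (-0.89 ± 0.35), but not under total counts (-0.50 and -0.37), in TIA1 not without the first labelled replicate or the first input (adjusted p = 0.0517 and 0.0524), and in G3BP2 not without either labelled replicate or the first input (adjusted p = 0.0548 to 0.521). In a fit of the libraries of DDX6 with arsenite alone, the calls of FECH, NCOA4, PPOX, BOLA3 and NUBP2 there missed the threshold (adjusted p = 0.0546 to 0.188). With no filter on low counts those of MCOLN1 in TIA1 and in DDX6 without arsenite, BOLA3 in DDX6, NUBP2 in G3BP2 and DDX6, and FDXR and SLC25A37 in G3BP2 missed it (adjusted p = 0.0548 to 0.346). Apart from the mRNAs with an element, each list thus held genes called in both directions in at least 1 combination, and the medians of the 5 lists were -0.52 to 0.59 where those of all tested genes were -0.02 to 0.02.

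**Figure D5:**
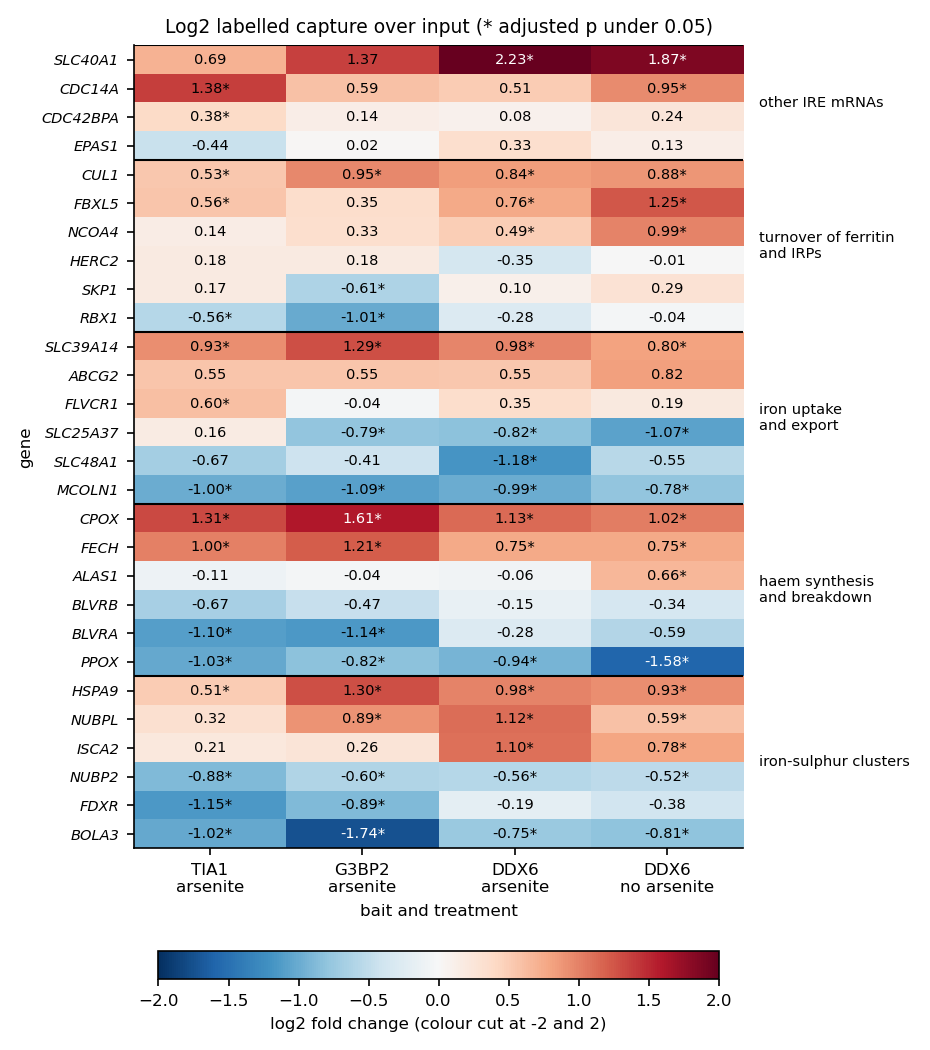
Log2 labelled capture over input (colour and printed value) of the named genes of 5 groups of iron metabolism, in the 4 combinations of bait and treatment; a star marks an adjusted p under 0.05. Genes with positive and with negative values stand in every group, with SLC40A1 the highest at 2.23 and BOLA3 the lowest at -1.74.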

How the data were processed

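RNA sequencing libraries of labelled captures, no-probe captures and inputs were deposited as 1 table of raw counts per Ensembl gene (release 87), which the authors deposited as whole numbers for 24 libraries. Per the submitters' processing notes, cutadapt 1.18, FastQC 0.11.8, HISAT2 2.1.0, SAMtools and HTSeq 0.7.2 were used with GRCh38; the strand setting and the treatment of reads with several places are not given in the sources used here, so counts of pseudogenes and of overlapping genes such as BEST1, opposite FTH1, are uncertain.

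The analysis used edgeR 4.0.16 under R 4.3.3: filterByExpr left 14360 genes, libraries were scaled by TMM, and 1 quasi-likelihood model with 12 group coefficients was fitted to all libraries (12 residual degrees of freedom, biological coefficient of variation 12.9%). Tests were two-sided, with Benjamini-Hochberg adjustment over all tested genes and a threshold of 0.05. GENCODE 29 matched 57388 of 57992 rows and gave symbols, lengths and transcripts. The script was tested on simulated counts in which few genes changed, in a single group and balanced in direction. That setting does not show how the scaling behaves where many genes are called, as in the labelled captures. Whether replicates were separate cultures is not stated in the labels, so p-values measure a spread between the 2 libraries of each group that may be technical. This spread was estimated over all 12 groups in 1 model, with information shared between genes, and not from the compared groups alone. Reads carry no molecular identifiers. Alternatives were total counts or DESeq2's size factors, the DESeq2 1.42.0 Wald test, no filter, a replicate block, fits of single combinations, each library left out, pseudogene counts added, and length or GC trends removed.

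The 6 mRNAs, the 5 lists of iron metabolism and the 2 marker lists were chosen with earlier results of these data known. Named genes are, per list, the 3 highest and 3 lowest by mean enrichment (all where 6 or fewer were tested), and for FTL, FTH1 and TFRC the 3 genes most alike; PCBP2 and GLRX3 were named after their values were seen. A few genes are not reported here, and the lists, their counts and the naming leave them out.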

Additional observations from a re-analysis of the deposited data

Results flagged for a closer look

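Differences between baits in the enrichment over input passed for 1 of the 6 mRNAs and for 3 of the listed genes of iron metabolism. The 5 lists had 4, 6, 15, 10 and 25 tested genes. Of all tested genes, 3.61% were called for TIA1 minus G3BP2, 2.35% for DDX6 minus TIA1 and 0.0487% for DDX6 minus G3BP2. Calls this few thus do not set the listed genes apart. ACO1 was lower in TIA1 than in G3BP2, with a difference of -1.09 ± 0.24 on the log2 scale (adjusted p = 0.0108, edgeR). Both labelled TIA1 captures were among the range of their inputs or below, and both labelled G3BP2 captures were above theirs. Over no-probe captures ACO1 was at 0.03 in TIA1 and 0.40 in G3BP2, with no call in either. SLC25A37, mitoferrin-1, was higher in TIA1 than in G3BP2 by 0.96 ± 0.28 (adjusted p = 0.0456, edgeR), at 38.3 and 38.4 CPM in the labelled TIA1 captures and 20.4 and 20.7 CPM in those of G3BP2. PCBP2, an RNA-binding protein that is also an iron chaperone, was higher in TIA1 than in G3BP2 by 0.69 ± 0.20 (adjusted p = 0.0435, edgeR; enrichments -0.29 and -0.98). GLRX3, a glutaredoxin that carries an iron-sulphur cluster, was higher in DDX6 than in TIA1, both with arsenite, by 0.82 ± 0.22 (adjusted p = 0.0388, edgeR; enrichments 0.38 and -0.43). The calls of SLC25A37 and PCBP2 ended in all 8 refits with 1 library of the compared groups left out, and that of GLRX3 in 6. In these leave-one-out refits the differences ran from 0.90 to 1.00 for SLC25A37, 0.59 to 0.77 for PCBP2 and 0.65 to 1.00 for GLRX3. The last 3 calls were also lost under total counts (adjusted p = 0.0592, 0.0732 and 0.151, edgeR) and with no filter on low counts (0.119, 0.2 and 0.252). SLC25A37 missed the threshold with the DESeq2 Wald test (adjusted p = 0.0609). GLRX3 missed it in an edgeR fit of the compared combinations alone (adjusted p = 0.18).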

How the results depend on the processing

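FTL, FTH1 and IREB2 kept direction and call in all comparisons of labelled captures with inputs and with no-probe captures, over 88, 88 and 80 refits; TFRC, ACO1 and SLC11A2 lost calls in 4 of 60, 4 of 50 and 11 of 50 refits, and no called value of theirs reversed. The causes of the changes below were not tested, apart from fewer libraries in the refits that use them.

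Counts of all genes called moved by more than 1.5 times mainly where they were small. For no-probe capture over input, TIA1 gave 2 genes (30 with no filter on low counts, 1 with DESeq2, 27 from its own libraries, 5 with the replicate block, 0 with any 1 library of it left out), G3BP2 24 (74 under total counts, 142 with no filter, 92 with DESeq2, 158 from its own libraries, 269 with the block, 0 to 11 with 1 left out), DDX6 with arsenite 0 (21 with no filter, 9 with the block, 0 to 138 with 1 left out) and DDX6 without 2 (51 with no filter, 8 with DESeq2, 436 from its own libraries, 33 with the block, 1 to 12 with 1 left out). Differences gave 518 genes for TIA1 minus G3BP2 (330 under total counts, 1043 from their own libraries, 1278 with the block, 127 to 468 with 1 library left out), 338 for DDX6 minus TIA1 (73 from their own libraries, 998 with the block, 96 to 398 with 1 left out), 7 for DDX6 minus G3BP2 (2 under total counts, 55 with no filter, 81 with DESeq2, 3 from their own libraries, 228 with the block, 2 to 15 with 1 left out) and 3 for arsenite (1 under total counts, 17 with no filter, 1 from DDX6 libraries alone, 6 with the block, 1 to 3 with 1 left out). The arsenite comparison of inputs gave 165 (284 under total counts, 42 from DDX6 libraries alone, 80 with the block, 20 to 419 with 1 left out). In DDX6 with arsenite its own libraries gave 2700 genes over input, not 5420, and 3443 over no-probe captures, not 6130; leaving out a library gave 3344 to 4731 for it, 3896 to 4558 (of 6104) for DDX6 without, 3633 to 4980 (of 5495) for G3BP2 and 3267 to 4284 (of 5138) for TIA1, over input.

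Of the 6 mRNAs, DDX6 with arsenite had 1 higher over input and 1 over no-probe captures in a fit of its own libraries, and 2 to 4 over no-probe captures with 1 library left out. Over no-probe captures 4 were higher in TIA1 and in G3BP2 under total counts, and in G3BP2 with no filter. ACO1 against no-probe captures in TIA1, at 0.03, became -0.0135 with DESeq2's size factors and with DESeq2, -0.0131 in its own libraries, and -0.0722 to 0.228 with 1 library left out; over input, at -0.23, it became 0.43 under total counts and -0.38 to 0.0048 with 1 library left out. Under total counts RBX1 became 0.094 and GLRX3 0.22 in TIA1, and PCBP2 0.12 in DDX6 with arsenite. In TIA1 minus G3BP2 0 of the 6 were called under total counts and 0 to 1 with 1 library left out, and DDX6 minus TIA1 gained ACO1 as 1 higher with DESeq2, its size factors and the block. TFRC in DDX6 minus G3BP2 ran from -0.51 to 0.35 with 1 library left out, above 0 without the first labelled capture or the second input of DDX6 with arsenite. Of no-probe captures over input, 1 mRNA was lower in G3BP2 with the block, and 1 was higher in DDX6 without arsenite in its own libraries. In the inputs, 0 to 1 of the 6, TFRC, passed for arsenite with 1 library left out.

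Replicate numbers of captures and inputs are shared in the labels, but the correlation of same-numbered deviations ran from -0.03 to 0.39 and 2 numbers cannot establish a pairing. With the replicate block TIA1 minus G3BP2 had 2 of the 6 lower, ACO1 and TFRC (-0.71, adjusted p = 0.0276, edgeR), and DDX6 minus TIA1 gave 0.84 for ACO1 (adjusted p = 0.00961); SLC11A2 over input in DDX6 with arsenite (0.43, adjusted p = 0.0445), TFRC over no-probe captures in TIA1 (0.45, adjusted p = 0.0157) and ACO1 in G3BP2 (0.39, adjusted p = 0.023) also passed. With 2 libraries a group and at least 1129510 counts in each, changes of the low mRNAs such as SLC40A1 are the least precise.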
